A study of Homo sapiens with 12 samples.

Results

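The PI3-kinase genes described here are PIK3CA, PIK3CB, PIK3CD, PIK3CG, PIK3R1, PIK3R5, INPP5D and AKT1, which encode catalytic subunits, regulatory subunits, an opposing phosphatase and a downstream kinase. They were chosen as 8 genes by symbol, of 18404 genes that have a row under a single symbol in the deposited table. A gene with several rows would have been read from the brightest, but each of the 7 genes measured had 1 row. PIK3CA was not analysed here. The 8 genes were chosen with the levels of the cell lines already known, so differences between the lines are given for them as a description, without a test.

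Class I PI3-kinases phosphorylate the membrane lipid phosphatidylinositol bisphosphate to the trisphosphate PIP3, which draws the kinase AKT and other proteins to the membrane. The alpha, beta and delta catalytic subunits pair with p85-type regulatory subunits and act below tyrosine kinase-linked receptors, whereas the gamma subunit pairs with p101 or p84 and acts below G protein-coupled receptors. Delta and gamma are the isoforms typical of white blood cells, and in B cells delta signals below the B-cell receptor.

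Gene expression was measured on 12 one-colour Affymetrix whole-transcript arrays. The samples were 2 established cell lines from Hodgkin lymphoma, a tumour that derives from B cells, named L-1236 and U-HO1. Each line received an shRNA directed at GATA-3, a transcription factor of T cells, or a control shRNA without function, which gave 4 groups of 3 arrays: L-1236 control, L-1236 knockdown, U-HO1 control and U-HO1 knockdown. All groups were cultured for 3 days after transduction and sorted for GFP, and the RNA of 25000 cells per sample was amplified. The medium was RPMI 1640 for L-1236 but IMDM for the other line, so line and medium cannot be told apart. The labels do not say whether the 3 samples of a group came from separate cultures, so p-values measure the spread between arrays, which may be technical. With 1 cell line on each side, what differs between them need not hold for other Hodgkin lymphomas.

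Levels are log2 values as deposited, between 3.86 and 13.99, and array medians lay between 6.96 and 7.09. Across rows, the correlation between arrays was 0.986 to 0.995 within a line and 0.939 to 0.951 between lines. The table holds no detection calls. As a stand-in for dim rows, the 350 rows of olfactory receptor genes, which lymphoid cells are not known to use, had a median of 5.89 and a 95th percentile of 6.73; this is not a measured background. All 5 Hodgkin markers read (TNFRSF8, FUT4, CCL17, IRF4 and PAX5) were above that percentile in both lines, with list means of 9.40 to 9.70 on the L-1236 arrays and 9.23 to 9.51 on the U-HO1 arrays. Of 4 measured B-cell markers 2 were above it in L-1236 (CD22 and CD79B) and 1 in U-HO1 (CD79B), with list means of 6.98 to 7.13 and 6.32 to 6.46. Of 5 T-cell markers 0 were above it in either line (list means 6.09 to 6.28 in L-1236 and 6.09 to 6.30 in U-HO1), of 5 myeloid markers only CSF1R was (6.41 to 6.56 and 6.35 to 6.54) and of 4 NK markers only NKG7 was (6.31 to 6.53 and 6.42 to 6.59).

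The target of the shRNA did not separate the labels. GATA3 read 10.29, 10.69 and 9.95 in L-1236 control and 10.80, 10.00 and 10.24 in L-1236 knockdown. It read 11.24, 10.90 and 10.24 in U-HO1 control and 11.07, 10.12 and 10.22 in U-HO1 knockdown. The groups overlapped in both lines, with log2 differences of 0.03 (SE 0.31) and -0.32 (SE 0.31, limma). Read by replicate number, U-HO1 knockdown was below control each time (11.07 against 11.24, 10.12 against 10.90, 10.22 against 10.24). L-1236 was mixed by number (10.80 against 10.29, 10.00 against 10.69, 10.24 against 9.95). Whether equal numbers form pairs is not known. In each line the array labelled knockdown replicate 1 read above that labelled control replicate 3, against the labels. Below, the arrays are therefore called by their labels only.

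Each of the 3 catalytic subunits measured stood apart between the lines, which 23.3% of all rows did. These genes were chosen with the levels known, so nothing is read from the count. PIK3CG, which encodes the gamma subunit, read 6.48, 6.26 and 6.38 in L-1236 control and 6.47, 6.30 and 6.18 in L-1236 knockdown. It read 11.13, 10.90 and 11.27 in U-HO1 control and 11.08, 11.17 and 11.20 in U-HO1 knockdown. Every U-HO1 array thus lay far above every L-1236 array, with 4.43 log2 units between the highest L-1236 and the lowest U-HO1 value. The line means were 11.13 ± 0.13 in U-HO1 and 6.34 ± 0.12 in L-1236 (SD, n = 6 arrays), a log2 difference of 4.78 or a ratio of 27.5. The ratio was 26.5 on arrays labelled control and 28.6 on arrays labelled knockdown. All 6 L-1236 arrays read below the 95th percentile of the olfactory receptor rows and above their median, so the level of PIK3CG in L-1236 could not be told from that of dim rows, and the ratio depends on the background there. A level on these arrays is that of RNA pooled from many cells, and fewer cells with the transcript cannot be told apart from less of it in each cell.

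The sequence before the start of PIK3CG is shown because this gene has the widest difference between the lines, and those of PIK3R5, described below, because its difference runs the other way. Each run holds the 250 bases before an annotated start, from RefSeq on GRCh38.p14, with capitals for GATAA, the core that GATA factors read, and for GGAA, the core that ETS factors read, on either strand (TTATC and TTCC).
PIK3CG, chr7:106865229-106865478, plus strand: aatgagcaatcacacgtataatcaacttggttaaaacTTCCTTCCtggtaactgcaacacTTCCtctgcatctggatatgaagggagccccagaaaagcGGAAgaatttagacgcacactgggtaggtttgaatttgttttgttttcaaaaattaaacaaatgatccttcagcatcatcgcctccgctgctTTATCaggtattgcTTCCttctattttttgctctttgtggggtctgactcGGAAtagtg
PIK3R5, first window, chr17:8965708-8965957, minus strand: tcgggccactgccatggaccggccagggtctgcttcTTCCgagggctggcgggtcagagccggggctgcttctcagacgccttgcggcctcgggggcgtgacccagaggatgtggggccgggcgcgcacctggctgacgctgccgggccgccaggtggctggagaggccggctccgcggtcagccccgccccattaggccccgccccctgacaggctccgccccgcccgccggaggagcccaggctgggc
PIK3R5, second window, chr17:8912518-8912767, minus strand: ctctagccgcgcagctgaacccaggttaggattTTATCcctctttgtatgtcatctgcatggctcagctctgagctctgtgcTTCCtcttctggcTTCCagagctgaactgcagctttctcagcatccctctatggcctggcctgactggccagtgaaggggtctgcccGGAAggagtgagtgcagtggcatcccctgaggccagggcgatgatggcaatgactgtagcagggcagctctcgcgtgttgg
The PIK3CG window has 1 GATAA match, which begins 59 bases before the start, and 6 GGAA matches, at 213, 209, 190, 151, 45 and 9 bases before it. Its GC content is 41.2%, against 76.4% in the first and 57.6% in the second PIK3R5 window. The first PIK3R5 window holds 1 GGAA and no GATAA, and the second holds 3 GGAA and 1 GATAA, 217 bases before the start. Over the 7 measured genes, 5 of 15 windows hold GATAA and 14 of 15 hold GGAA. Of 35116 windows of the same length 20.4% hold GATAA and 92.7% hold GGAA. A match of these letters is not a bound site.

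PIK3CB encodes the beta subunit, which can act below both tyrosine kinase-linked and G protein-coupled receptors. It read 7.79, 7.57 and 7.90 in L-1236 control, 7.84, 7.84 and 7.86 in L-1236 knockdown, 8.58, 8.50 and 8.82 in U-HO1 control and 8.63, 8.48 and 8.73 in U-HO1 knockdown. The lines did not overlap, with U-HO1 higher by 0.82 on the log2 scale (a ratio of 1.77), a gap of 0.58 between the nearest arrays.

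PIK3CD, the delta subunit of leukocytes, ran the other way. On L-1236 arrays it read 9.59, 9.60 and 9.67 under the control label and 9.69, 9.76 and 9.84 under the knockdown label. On U-HO1 arrays it read 8.95, 8.83 and 9.07, and 8.91, 9.03 and 8.92. U-HO1 was lower on every array, with a log2 difference of -0.74 between line means (a ratio of 1.67) and 0.51 between the nearest arrays.

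The regulatory subunits were split. PIK3R5 encodes p101, the adaptor that couples the gamma subunit to G protein beta-gamma dimers. It read 7.92, 8.34 and 8.68 in L-1236 control, 8.40, 8.65 and 8.56 in L-1236 knockdown, 6.52, 6.65 and 6.68 in U-HO1 control and 6.62, 6.72 and 6.64 in U-HO1 knockdown. All L-1236 arrays were above all U-HO1 arrays, by at least 1.20 log2 units. The line means were 8.43 ± 0.28 and 6.64 ± 0.07 (SD, n = 6 arrays), a difference of -1.79 for U-HO1 minus L-1236 or a ratio of 3.45. All 6 U-HO1 arrays read below the 95th percentile of the olfactory receptor rows. The gene of the gamma subunit and that of its p101 adaptor therefore had their high levels in different lines, and each was in the range of dim rows where the other was high.

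PIK3R6 encodes p84, the alternative adaptor of the gamma subunit, and was looked at for this role after its values were seen. It read 7.18, 7.28 and 7.78 in L-1236 control, 7.85, 7.47 and 7.46 in L-1236 knockdown, 6.37, 6.61 and 6.35 in U-HO1 control and 6.19, 6.62 and 6.40 in U-HO1 knockdown. It was higher on every L-1236 array than on any U-HO1 array, as PIK3R5 was, and all 6 U-HO1 arrays were below the olfactory receptor percentile. The log2 difference between line means was -1.08 over all arrays (a ratio of 2.12), -0.97 on arrays labelled control and -1.19 on arrays labelled knockdown, given as a description because of how the gene was picked. In the RefSeq gene order PIK3R6 is the protein-coding gene next to PIK3R5. The genes around this pair did not pass the test on arrays labelled control, with -0.04 for MFSD6L (SE 0.07, limma adjusted p = 0.805), -0.12 for NTN1 (SE 0.08, adjusted p = 0.335) and 0.02 for STX8 (SE 0.09, adjusted p = 0.906). Beside PIK3CG, CCDC71L had 0.51 (SE 0.13, adjusted p = 0.0130) and PRKAR2B 0.56 (SE 0.27, adjusted p = 0.170), against 4.73 for PIK3CG on the same arrays. One gene further out, NAMPT was higher in U-HO1 by 1.24 (SE 0.19, limma adjusted p = 0.000457), and HBP1 on the other side had 0.28 (SE 0.19, adjusted p = 0.336).

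**Figure D1:**
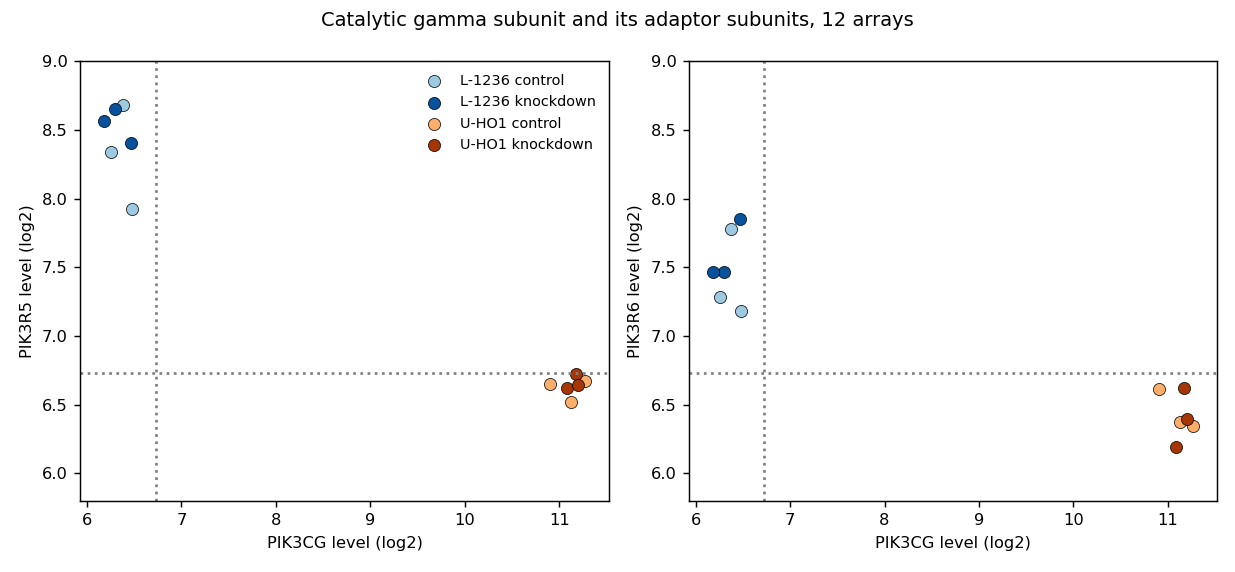
Level of PIK3CG (horizontal axis, log2) against PIK3R5 (left) and PIK3R6 (right, both log2) on each of the 12 arrays, coloured by line and shRNA label; dotted lines mark the 95th percentile of olfactory receptor rows, 6.73. The 6 L-1236 arrays lie at the upper left, with PIK3CG at 6.18 to 6.48, and the 6 U-HO1 arrays at the lower right, with PIK3CG at 10.90 to 11.27.

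PIK3R1 encodes p85-alpha and its shorter forms, the main partners of the alpha, beta and delta subunits. It read 9.04, 9.76 and 9.81 in L-1236 control, 9.59, 9.78 and 9.75 in L-1236 knockdown, 9.93, 9.49 and 9.86 in U-HO1 control and 9.75, 9.77 and 9.69 in U-HO1 knockdown. The lines overlapped, and the L-1236 array labelled control replicate 1 was lower than any other array. The line means were 9.62 ± 0.29 in L-1236 and 9.75 ± 0.15 in U-HO1 (SD, n = 6), a log2 difference of 0.13 that fell to 0.014 without that array.

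INPP5D encodes SHIP1, a phosphatase of blood cells that takes from PIP3 a phosphate other than the one PI3-kinase adds, which leaves a different bisphosphate lipid. It read 9.37, 9.48 and 9.87 in L-1236 control, 9.75, 9.81 and 9.69 in L-1236 knockdown, 9.43, 9.24 and 9.68 in U-HO1 control and 9.47, 9.46 and 9.33 in U-HO1 knockdown. The lines overlapped, with U-HO1 lower by a log2 difference of -0.23.

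AKT1, the kinase that PIP3 recruits, differed little between the lines. It read 10.35, 10.17 and 10.07 in L-1236 control, 10.13, 10.32 and 10.31 in L-1236 knockdown, 10.20, 9.97 and 10.21 in U-HO1 control and 10.09, 10.16 and 10.13 in U-HO1 knockdown. The ranges overlapped widely, with a log2 difference of -0.10 for U-HO1 minus L-1236.

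Counted together, the lines did not overlap for 4 of the 7 genes, with U-HO1 higher for 2 (PIK3CG and PIK3CB) and lower for 2 (PIK3R5 and PIK3CD). Over all 32321 rows the lines did not overlap for 23.3%, 11.8% with U-HO1 higher and 11.5% with it lower. A ratio of line means of at least 2 was reached by 2 of the 7, PIK3CG and PIK3R5, and by 4.9% of all rows. The median of U-HO1 minus L-1236 was -0.10 over the 7 genes and 0.02 over all rows, and the median size was 0.74 and 0.12. Because the genes were chosen with the levels known, nothing is read from these shares.

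**Figure D2:**
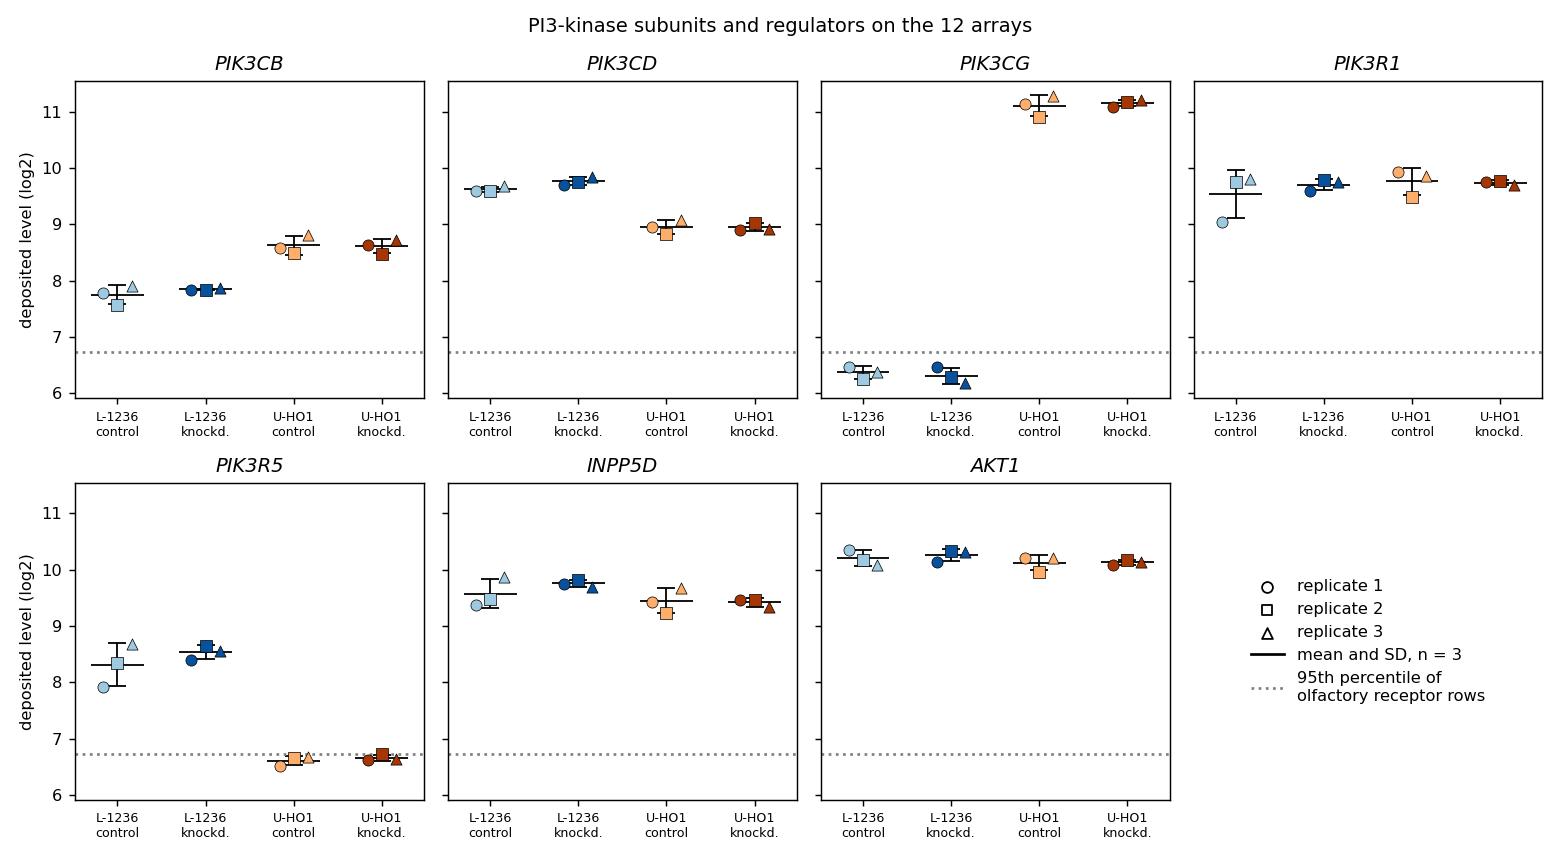
Deposited log2 level of each measured PI3-kinase gene by line and shRNA label; points are arrays (marker shape gives the replicate number), bars the mean and SD of 3 arrays, and the dotted line the 95th percentile of olfactory receptor rows. PIK3CG sits below the line in L-1236 and between 10.90 and 11.27 in U-HO1, PIK3R5 does the reverse, and PIK3R1, INPP5D and AKT1 overlap between the lines.

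Within each gene the 4 group means were ordered by line, though the genes were chosen with the levels of the lines known. The share of all rows with such an order was not counted. For PIK3CG, PIK3CB and PIK3R5 the step between the lines was the only one where the ranges of neighbouring groups stood apart. For PIK3CD a further step stood apart, L-1236 knockdown (lowest array 9.694) over L-1236 control (highest array 9.675). For PIK3R1, INPP5D and AKT1 no neighbouring groups stood apart, so their order is not beyond the spread of the arrays. Over all rows the lines did not overlap for 23.3%, and the labels in L-1236 did not for 10.7%.

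The arrays that set the spread were mostly labelled control. In L-1236, control replicate 1 gave the lowest value for 4 of the 7 genes (PIK3CD, PIK3R1, PIK3R5 and INPP5D) and the highest for PIK3CG and AKT1, while control replicate 3 was the highest for 4 (PIK3CB, PIK3R1, PIK3R5 and INPP5D). In U-HO1, control replicate 2 was the lowest for 5 genes and control replicate 3 the highest for 5. The SD over arrays labelled control exceeded that over arrays labelled knockdown for 5 of the 7 genes in L-1236 and 7 of 7 in U-HO1, and did so for 57.9% and 62.1% of all rows. Whether array quality or culture takes part in this was not tested.

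The shRNA labels were then compared within each line, the question the series was designed for. The genes were chosen with earlier results of these data known. Whether those included this contrast is not known, so the tests need not be independent of the choice. In L-1236 the mean of the arrays labelled knockdown was higher for 6 of the 7 genes and for 46.7% of all rows. AKT1 and PIK3CG change sign with quantile normalization. The 7 genes were read on the same arrays, so their directions are not independent. The largest log2 difference was that of PIK3R5, 0.23 (95% interval -0.097 to 0.55), followed by INPP5D with 0.18 (-0.11 to 0.46), PIK3R1 with 0.17 (-0.22 to 0.56) and PIK3CD with 0.14 (-0.025 to 0.31). PIK3CB differed by 0.096 (-0.13 to 0.33) and AKT1 by 0.054 (-0.15 to 0.26). PIK3CG differed by -0.056 (-0.28 to 0.17). By limma 0 of the 7 passed the submitters' criteria, a fold of 1.5 or more at a false discovery rate no higher than 25%, as did 0% of all rows, and 0 of 7 had an unadjusted p under 0.05, against 4.77% of all rows. Their adjusted p values ran from 0.925 for PIK3CD to 0.948 for PIK3CG (limma).

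Only PIK3CD had labels that did not overlap in L-1236, 1 of the 7 genes against 10.7% of all rows (3.24% with knockdown above and 7.45% with it below). Its difference of 0.14 ran from 0.11 to 0.18 when single arrays were left out, but was 0.048 after quantile normalization and 0.21 with centred array medians. The upward differences of PIK3R5, INPP5D and PIK3R1 leaned on the array labelled control replicate 1: without it they were 0.032, 0.077 and -0.076. Without control replicate 3 these differences were 0.41, 0.33 and 0.31 instead. Those of PIK3CB and AKT1 were 0.11 and 0.13 without control replicate 1. PIK3CB fell to 0.0043 without control replicate 2, and AKT1 to -0.0090 without control replicate 3. The median difference was 0.14 over the 7 genes and -0.0091 over all rows.

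In U-HO1 the differences were closer to 0. PIK3CG differed by 0.052 (95% interval -0.18 to 0.28), PIK3R5 by 0.048 (-0.28 to 0.37), INPP5D by -0.031 (-0.32 to 0.26), PIK3R1 by -0.022 (-0.41 to 0.36) and PIK3CB by -0.017 (-0.25 to 0.21). PIK3CD and AKT1 differed by -0.00024 (-0.17 to 0.17) and 0.00061 (-0.21 to 0.21). The labels overlapped for all 7 genes, while they did not for 3.79% of all rows. By limma 0 of the 7 passed the submitters' criteria (0% of all rows) and 0 had an unadjusted p under 0.05 (1.05% of all rows), with an adjusted p of 1.000 for each. The intervals leave room for changes up to about the size of their bounds, and since GATA3 itself was not shown to differ between the labels, they do not bear on what a loss of GATA-3 would do.

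The differences between labels were also compared between the lines. U-HO1 minus L-1236 ran from -0.21 for INPP5D (SE 0.19) to 0.11 for PIK3CG (SE 0.15), and 0 of the 7 passed by limma at an adjusted p under 0.05 (0% of all rows) or at an unadjusted p under 0.05 (2.46% of all rows). The smallest unadjusted p was 0.212, for PIK3CD at -0.14 (SE 0.11), in limma's fit over all rows.

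**Figure D3:**
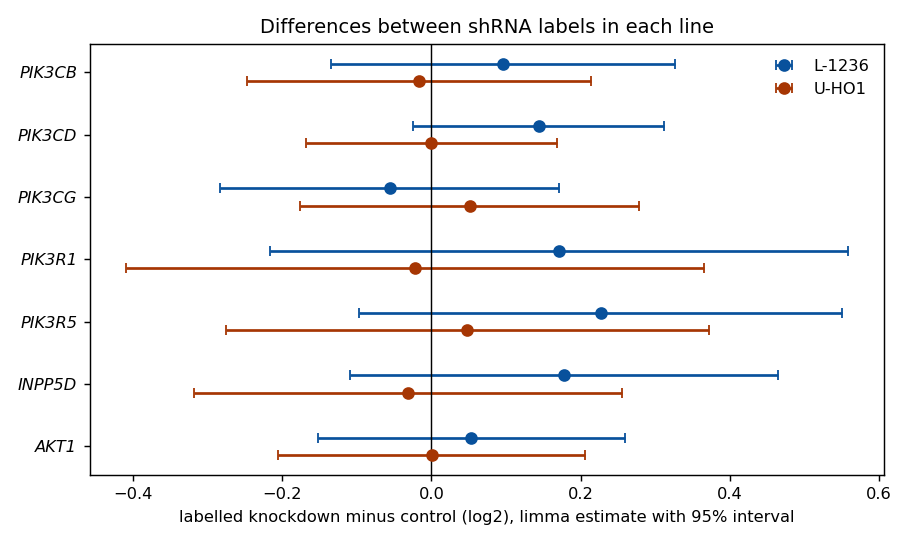
Labelled knockdown minus control on the log2 scale for each gene in L-1236 (blue) and U-HO1 (orange-brown); points are limma estimates from 3 arrays per group and bars 95% intervals. Every interval includes 0. In L-1236 all but PIK3CG lie on the positive side, where 46.7% of all rows also lay. With quantile normalization AKT1 and PIK3CG change sign there.

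To place the 7 genes in their pathway, 99 further genes were listed by role, of which 85 had a row, and compared between the lines on arrays labelled control (n = 3 each). By limma, at an adjusted p under 0.05 and a fold of at least 2, 4 were higher and 6 lower in U-HO1, 11.8% of the 85 against 4.99% of all rows (2.69% higher and 2.31% lower). Without the fold limit 20 were higher and 23 lower, 50.6% against 25.8%. The median difference was 0.06 over the list and 0.00063 over all rows. The list was drawn up with earlier results of these data known and holds genes that most cells use, so its share is a description.

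Of 7 other PI3-kinase genes measured, 1 was higher, 1 lower and 5 were not called, against 2.69% higher and 2.31% lower over all rows. Without the fold limit 2 were higher and 2 lower, against 25.8% of all rows in either direction. PIK3R6, picked after its values were seen, is counted among the 5 and, without the fold limit, among the 2 lower. For PIK3R6 this is a description and not a test. PIK3R3, with 0.55 (SE 0.13), passed only without the fold limit. PIK3C2G, a class II PI3-kinase known mainly from liver, was higher in U-HO1 by 2.32 (SE 0.33, adjusted p = 0.000235), at 8.22 ± 0.55 against 5.90 ± 0.05. Its level in L-1236 was that of the median olfactory receptor row, so the size of the difference depends on the background. PIK3C2B, another class II enzyme, was lower by a difference of -1.10 (SE 0.096, adjusted p = 4.04e-06). PIK3C2A and PIK3R4, the partner of the class III kinase, had differences of 0.38 (SE 0.20) and 0.23 (SE 0.15) and did not pass.

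Of 8 phosphatases measured, 2 were higher and 0 lower, against 2.69% and 2.31% of all rows. Without the fold limit 2 were higher and 1 lower, against 25.8% of all rows in either direction. INPP4B, which removes a phosphate from the lipid that SHIP1 makes, was 6.45-fold higher in U-HO1 (limma adjusted p = 2.12e-08). Its level was 9.29 ± 0.17 there and 6.61 ± 0.16 in L-1236 (SD, n = 3), the latter below the olfactory receptor percentile, so this ratio depends on the background too. Its relative INPP4A was 2.59-fold higher (adjusted p = 4.54e-05). INPPL1, the relative of SHIP1 found in most tissues, had -0.41 (SE 0.14) and the AKT phosphatase PHLPP2 had 0.45 (SE 0.17), and neither passed.

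None of 13 upstream adaptors and kinases and none of 15 G protein and RAS genes, the inputs of the gamma subunit, reached a 2-fold difference with an adjusted p under 0.05 by limma, which 4.99% of all rows did. Without the fold limit 1 of the 13 was higher and 4 lower, and 3 of the 15 were higher and 2 lower, against 25.8% of all rows in either direction. Among the adaptors and kinases, the SRC-family kinase LYN differed by 0.61 (SE 0.18, adjusted p = 0.0264) and GAB2 by 0.26 (SE 0.27). GNB1 and GNG5, G protein beta and gamma subunits, differed by -0.16 (SE 0.12) and 0.01 (SE 0.13).

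Of 13 genes listed as effectors of PIP3 and related lipids, 2 were lower and 0 higher, against 2.31% and 2.69% of all rows. Without the fold limit 4 of the 13 were higher and 5 lower, against 25.8% of all rows in either direction. Neither of the 2 genes called at 2-fold is known chiefly for binding PIP3. SGK1, a kinase related to AKT but without its PIP3-binding domain, was lower in U-HO1 by a difference of -2.06 (SE 0.24, adjusted p = 4.20e-05), at 6.80 ± 0.36 against 8.85 ± 0.17. Its U-HO1 level lay near the olfactory receptor percentile of 6.73, so the size of this difference may depend on the background. PLEKHA1, whose domain binds the lipid that SHIP1 makes, differed by -1.84 (SE 0.22, adjusted p = 5.76e-05). PLCG2 and PDPK1, the latter of which phosphorylates AKT, did not pass, with -0.01 (SE 0.08) and 0.21 (SE 0.12).

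In the mTOR branch 1 of 15 genes was called, against 4.99% of all rows. Without the fold limit 3 of the 15 were higher and 6 lower, against 25.8% of all rows in either direction. PRR5L, which binds the mTOR complex that phosphorylates AKT, was 6.40-fold lower in U-HO1 (limma adjusted p = 6.09e-10). Its level was 6.61 ± 0.06 there, below the olfactory receptor percentile, so the ratio depends on the background, and 9.29 ± 0.04 in L-1236 (SD, n = 3). MTOR and MAPKAP1, both part of that complex, differed by less than 2-fold, at -0.38 (SE 0.12, adjusted p = 0.0322) and 0.31 (SE 0.09, adjusted p = 0.0259).

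Of 14 genes of the GSK3 and FOXO branch, 1 was higher and 2 lower, against 2.69% and 2.31% of all rows. Without the fold limit 5 were higher and 3 lower, against 25.8% of all rows in either direction. The lipid receptor S1PR1 was higher by 1.76 (SE 0.15, adjusted p = 3.68e-06), from a level of 6.56 in L-1236 that lies below the olfactory receptor percentile. The death-promoting BCL2L11 and the cyclin gene CCNG2 were lower, by differences of -2.25 (SE 0.24, adjusted p = 2.41e-05) and -1.73 (SE 0.21, adjusted p = 6.59e-05). S1PR1, BCL2L11 and CCNG2 were listed as genes that FOXO factors can raise directly or through others. These genes, the ones called at 2-fold, did not move one way. GSK3A and the cell-cycle inhibitor CDKN1B differed by less than 2-fold, at -0.47 (SE 0.14, adjusted p = 0.0243) and 0.77 (SE 0.14, adjusted p = 0.00158). The others that passed only without the fold limit were FOXO1 (0.23, SE 0.07), SESN1 (0.52, SE 0.08) and BCL6 (0.69, SE 0.19), all higher in U-HO1.

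**Figure D4:**
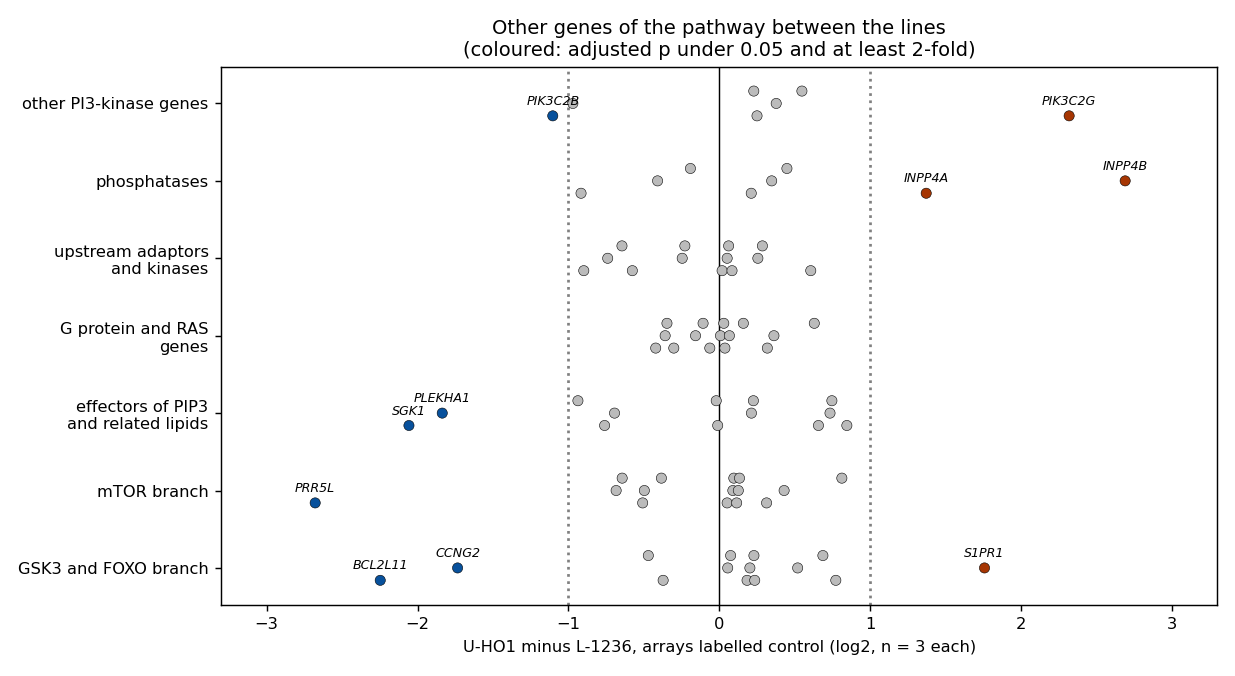
Log2 difference of U-HO1 minus L-1236 on arrays labelled control for 85 pathway genes, one point a gene, by role; coloured and named points passed limma at an adjusted p under 0.05 with at least a 2-fold difference, and dotted lines mark 2-fold. The 10 called genes are 4 higher and 6 lower in U-HO1, 11.8% of the 85 against 4.99% of all rows. Of them 0 are upstream adaptors or kinases, G protein or RAS genes. Without the fold limit 38.5% of the upstream adaptors and kinases passed, and 33.3% of the G protein and RAS genes, against 25.8% of all rows.

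Between the shRNA labels none of the 85 genes passed by limma in either line, with smallest adjusted p values of 0.925 in L-1236 and 1.000 in U-HO1. At an unadjusted p under 0.05 there were 0 in L-1236 and 2 in U-HO1, against 4.77% and 1.05% of all rows. The 2 were the cap-binding factor EIF4E with -0.18 and its inhibitor EIF4EBP1 with -0.22. EIF4E had a mean level of 6.53 over all arrays, below the olfactory receptor percentile, so it could not be told from dim rows. The median difference over the list was 0.06 in L-1236 and 0.0014 in U-HO1, against -0.0091 and -0.0016 over all rows.

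The profiles most like those of the members with at least a 2-fold difference between lines were sought among 18403 other genes. Likeness was the root mean square difference over the 12 arrays between profiles centred on their own mean, so that a small value needs a line difference of similar size. Closest to PIK3CG were DDHD1, a phospholipase, at 0.14 log2 units, THEMIS at 0.19 and the small nucleolar RNA SNORD116-15 at 0.20, with U-HO1 minus L-1236 of 4.64, 4.71 and 4.91. Closest to PIK3R5 were SGMS2, a sphingomyelin synthase, at 0.10, EPB41 at 0.11 and POGLUT3 at 0.11, with differences of -1.68, -1.82 and -1.76. In U-HO1, SGMS2 and POGLUT3 read 5.85 and 5.98, also below that percentile, whereas EPB41 read 8.24.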

How the data were processed

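The values are the deposited log2 levels of 32321 rows on 12 arrays, which the authors normalized with R 2.8.1 and Bioconductor, per the submitters' processing notes and the series' design text. Log2 was inferred from their range. For background correction, normalization, summary method and genome build the entry is: not given in the sources used here. Rows were named through the platform's annotation (19158 with 1 symbol, 1388 with several, 11775 unnamed), and 19128 were found by Entrez identifier in a GRCh38.p14 gene table, which changed 0 symbols. Genes and lists were chosen with earlier results of these data known. Of the pathway list, the called genes with the largest difference (up to 4 a role) and the 2 brightest not called are named.

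All arrays entered 1 limma 3.58.1 model in R 4.3.3 with a mean per group (8 residual degrees of freedom), with Benjamini-Hochberg adjustment over all rows. The fit was tested on simulated data. The number of arrays limits precision. A comparison of subunit proteins was not made, since protein sequences were not used here. Alternatives were a replicate block, quantile normalization, centred medians, a filter on dim rows (mean above 5.89), only the groups compared, a trended robust prior, no fold limit between the lines, and arrays left out. A mean over several rows of a gene gave no second value, as each gene has 1 row.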

Additional observations from a re-analysis of the deposited data

Results flagged for a closer look

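PIK3R1 on the L-1236 array labelled control replicate 1 read 9.04, which lay 0.55 below the next of the 6 arrays of that line, 0.712 of their whole range of 0.77. PIK3CB on the L-1236 array labelled control replicate 2 read 7.57, which lay 0.22 below the next, 0.644 of a range of 0.33. Both shares exceed Dixon's 95% critical value of 0.625 for 6 values, a limit that chance passes in about 1 of 20 groups, and 14 sets of 6 arrays were looked at. The cause was not tested.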

How the results depend on the processing

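Counts of rows passing the submitters' criteria between the labels stayed at 0 under every alternative in U-HO1 and for the difference between lines. In L-1236 they ran from 0 to 22 with single arrays left out, 22 without control replicate 3 and 1 without U-HO1 knockdown replicate 1. Same-numbered arrays did not deviate together in all pairs (correlations from -0.40 to 0.32), so the numbers were not taken as pairs. The replicate block gave 0 rows in each line. It gave each replicate number an effect shared by both lines, so pairing within a line was not tested. Between the lines 1614 rows were called at 2-fold and 8343 without a fold limit; single arrays left out gave 1586 to 1783, and 10 to 11 pathway genes. The direction between labels turned for small differences, causes not tested: with quantile normalization AKT1 (-0.050) and PIK3CG (0.0063) in L-1236 and PIK3CD (0.0057) in U-HO1; with centred medians PIK3CG in L-1236 (0.0071) and AKT1 in U-HO1 (-0.0045); without knockdown replicate 1 and control replicate 3 of both lines, PIK3CB (0.068), PIK3CD (0.083), PIK3R1 (0.023) and INPP5D (0.059) in U-HO1. With single arrays left out the L-1236 ranges that include 0 were -0.13 to 0.0097 for PIK3CG, -0.076 to 0.31 for PIK3R1 and -0.0090 to 0.13 for AKT1. Those of U-HO1 were -0.084 to 0.077 for PIK3CB, -0.059 to 0.060 for PIK3CD, -0.047 to 0.14 for PIK3CG, -0.16 to 0.061 for PIK3R1, -0.00046 to 0.079 for PIK3R5, -0.14 to 0.083 for INPP5D and -0.079 to 0.045 for AKT1. No alternative took a difference between labels of the 7 genes past an adjusted p of 0.05, and those between the lines moved by less than 1 SD, pooled within the 4 groups for each gene. In L-1236 quantile normalization lowered the differences of PIK3CD (0.14 to 0.048), INPP5D (0.18 to 0.081) and PIK3R1 (0.17 to 0.084). Levels near the dim rows limit the ratios of PIK3CG, PIK3R5, PIK3R6, PRR5L, INPP4B, PIK3C2G, S1PR1 and SGK1, and the difference between labels of EIF4E.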
